A study of Homo sapiens with 8 samples.

Results

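The genes carried by the mitochondrial genome, and the copies of them that lie in nuclear chromosomes, were followed in leukaemia cells from mice given gilteritinib, a ketogenic diet, both or neither. The members were the 37 genes whose symbol starts with MT-, and the nuclear copies named after a cytochrome oxidase, NADH dehydrogenase, ATP synthase or cytochrome b gene that had 10 or more counts in at least 2 of 8 libraries. Of 394 such copies in the count table, 18 met this limit and 363 had no count in any library. The members were therefore 55 of 60676 genes.

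The cells of all groups were MOLM14, an acute myeloid leukaemia line labelled FLT3-ITD (an internal tandem duplication in the FLT3 kinase gene) and MLLr (a rearranged MLL gene), engrafted in mice in what the submitters call a CLDX model. The 8 libraries were gilteritinib with ketogenic diet, gilteritinib with standard diet, vehicle with ketogenic diet and vehicle with standard diet, each once from tissue labelled liver and once from bone marrow. Gilteritinib, an inhibitor of the FLT3 kinase, or its vehicle was given for 1 week, and the ketogenic or standard diet for 3 weeks. Marrow RNA was extracted from human CD45-sorted pellets, and liver RNA from whole pieces that hold mouse cells beside the human ones. Each group had 1 library of this single line. The labels do not give the mice's age or strain or how many animals stand behind a library. The p-values of the fits rest mostly on a spread shared across genes within these libraries, and they do not measure the spread between animals. A code that the labels call batch differs between liver and marrow, so tissue and batch cannot be told apart.

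The mitochondrial genome is a small circle present in many copies per cell. It encodes 13 subunits of the respiratory chain and ATP synthase, the 2 RNAs of the mitochondrial ribosome and 22 transfer RNAs, which are transcribed as long joint transcripts from both strands and cut apart at the transfer RNAs. In acute myeloid leukaemia, oxidative phosphorylation is studied as a dependency of drug-resistant cells. Fragments of mitochondrial DNA have been inserted in nuclear chromosomes during evolution, and reads from mitochondrial RNA can be counted at such copies when their sequence is nearly the same.

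The 18 copies lay on 7 chromosomes in GRCh38. MTND1P23, MTND2P28, MTCO1P12, MTCO2P12, MTATP8P1, MTATP6P1 and MTCO3P12, 7 in all, formed 1 block on the plus strand of chromosome 1 from base 629062 to base 634922. It lay within the minus-strand pseudogene AL669831.3, whose longest overlap by a single exon is 74 bases with MTCO1P12 and 86 with MTCO2P12. The microRNA gene MIR6723 overlaps MTCO1P12 by 89 bases on the other strand. A second block of 5 copies (MTCYBP18, MTND6P4, MTND5P11, MTND4P12 and MTND4LP30) lay on chromosome 5 from base 134923303 to base 134928326, inside an intron of PCBD2, an enzyme gene of the plus strand, with all but MTND6P4 on the minus strand, and the microRNA gene MIR4461 overlaps MTND4LP30 by 74 bases on the other strand. The other 6 were MTATP8P2 on chromosome 2, MTCO2P22 elsewhere on chromosome 5, MTND4P24 on chromosome X, MTCO1P2 on chromosome 14, MTCO1P40 on chromosome 17 and MTCO2P2 on chromosome 18. MTATP8P2, MTCO1P2 and MTCO2P2 lay in introns of RGPD2, AKAP6 and SMAD2.

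How far a copy differs from its mitochondrial gene bears on which counts it can receive, so 5 stretches of 60 bases are shown beside the mitochondrial bases they align to. They are the stretches with the median number of mismatches in each alignment. Capitals mark the bases that differ, and the sequences are those of the GENCODE 29 transcripts (GRCh38).
MTND1P23, chr1:629346-629405, plus strand: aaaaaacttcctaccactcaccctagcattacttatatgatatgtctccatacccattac
MT-ND1, chrM:4176-4235, plus strand: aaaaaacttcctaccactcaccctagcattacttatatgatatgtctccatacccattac
MTATP6P1, chr1:633978-634037, plus strand: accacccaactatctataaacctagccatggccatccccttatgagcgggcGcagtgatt
MT-ATP6, chrM:8809-8868, plus strand: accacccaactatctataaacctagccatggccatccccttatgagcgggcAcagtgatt
MTND4P12, chr5:134927045-134927104, minus strand: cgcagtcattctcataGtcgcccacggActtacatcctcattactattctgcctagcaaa
MT-ND4, chrM:11692-11751, plus strand: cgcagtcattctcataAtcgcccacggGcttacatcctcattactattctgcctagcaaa
MTCYBP18, chr5:134923358-134923417, minus strand: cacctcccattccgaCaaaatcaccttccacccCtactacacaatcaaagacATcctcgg
MT-CYB, chrM:15379-15438, plus strand: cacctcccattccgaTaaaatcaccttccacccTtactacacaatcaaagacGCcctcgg
MTND4P24, chrX:126473082-126473141, plus strand: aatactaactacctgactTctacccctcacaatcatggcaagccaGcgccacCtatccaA
MT-ND4, chrM:10957-11016, plus strand: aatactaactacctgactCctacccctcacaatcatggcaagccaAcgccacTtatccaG
Counted from the 5′ end of the stretch, with the mitochondrial base first, MTATP6P1 carried A52G and MTND4P12 carried A17G and G28A. MTCYBP18 carried T16C, T34C, G53A and C54T, and MTND4P24 carried C19T, A46G, T53C and G60A. MTND1P23 had no mismatch in its stretch.

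The chromosome 1 copies were 97.6% (MTATP8P1) to 99.2% (MTND1P23) identical to their mitochondrial genes. Of these 7 copies, 6 held windows of 100 bases, the read length, that were identical to a mitochondrial transcript, and in MTND1P23 these made up 34.4% of its windows. The chromosome 5 block was 92.4% (MTCYBP18) to 95.8% (MTND4P12) identical and held no such window, and neither did the remaining 6 copies, of which MTCO2P22 was the least alike at 90.2%. Among all 18, 6 copies had an identical window and 12 had none.

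Mitochondrial genes took a large and variable part of each library. Their share of counts was 12.5% and 12.0% in the liver libraries with gilteritinib (ketogenic and standard diet) and 12.2% and 13.3% in those with vehicle (ketogenic and standard diet). In marrow it was 12.97% with both treatments and 10.2% with gilteritinib alone, against 11.8% with the ketogenic diet and vehicle and 9.28% with neither. The marrow library with neither treatment was thus the lowest of the 8 and the marrow library with both was the highest in marrow. Wilson 95% intervals were within 0.018 percentage points of each share, which covers counting error only.

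**Figure D1:**
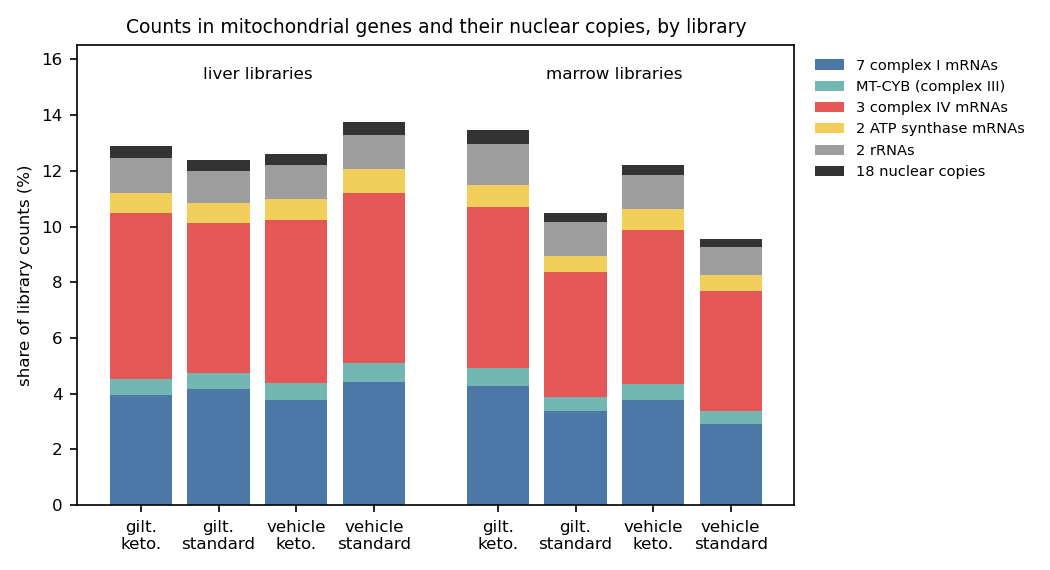
Share of all counts in a library (%, vertical axis) taken by the mitochondrial mRNAs of each respiratory complex, the 2 mitochondrial rRNAs and the 18 nuclear copies, in the 4 liver and 4 marrow libraries, 1 bar per library. Marrow bars differ more among themselves (MT- genes 9.28% to 12.97%) than liver bars (12.0% to 13.3%).

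Averaged over both labels, the share of MT- counts was 0.244 percentage points higher with gilteritinib, which an exact two-sided permutation test within labels (36 arrangements) did not separate from 0 (p = 0.778). With the ketogenic diet it was 1.19 points higher (exact permutation p = 0.222). The smallest p this design allows is 0.0556, so neither could have passed 0.05. The drug difference fell below 0 without the marrow library with neither treatment (-0.396 points), the marrow library with both (-0.46) or the liver library with vehicle and ketogenic diet (-0.02586). In marrow the share averaged 11.6% with gilteritinib and 10.6% with vehicle, and 12.4% with ketogenic and 9.72% with standard diet. In liver it averaged 12.2% with gilteritinib and 12.7% with vehicle, and 12.3% with ketogenic and 12.6% with standard diet. The lower liver averages rest on the library with vehicle and standard diet (13.3%): on the ketogenic diet the share was 12.5% with gilteritinib and 12.2% with vehicle, and under gilteritinib it was 12.5% with ketogenic and 12.0% with standard diet. Without that library the pooled differences were 0.513 points for the drug and 1.51 points for the diet.

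Library totals were 13605936 to 33611830 counts, and in the liver libraries the totals with gilteritinib (26499478 and 27657147) were above those with vehicle (13605936 and 16542212). Of 14 hepatocyte markers, 8 including albumin (ALB) were at 0 in all 8 libraries, and the 14 together came to 1.25 to 1.56 CPM (the count relative to the library total) in liver and 0.675 to 1.35 CPM in marrow. Leukaemia cell markers came to 4438 to 9108 CPM in liver and 4382 to 8128 CPM in marrow. The table lists human genes, and how mouse reads were handled is not given. Fewer cells and less RNA per cell cannot be told apart in such bulk libraries.

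Among the mitochondrial RNAs themselves, those of cytochrome c oxidase were the most abundant per length. Levels below are CPM of the library size scaled by trimmed means (TMM), per kilobase of transcript, as the mean over 8 libraries with the SD between them. MT-CO3, MT-CO2 and MT-CO1, the catalytic core of complex IV, held the 3 highest places in every library, at 22805 ± 3621, 18662 ± 2950 and 15429 ± 2217. MT-ND1 (10561 ± 1683) and MT-ATP6 (10124 ± 1469) came next, in changing order, with MT-ND1 the higher in 5 of 8 libraries. MT-ND4 (9217 ± 1377) was sixth in all 8. MT-ND2, MT-ND3 and MT-RNR2, the large ribosomal RNA, followed at 7334 ± 1261, 6934 ± 1543 and 6835 ± 988 and exchanged places 7 to 9 between libraries. Below them stood MT-CYB, the mitochondrial subunit of complex III, at 5116 ± 811, MT-ND4L at 3519 ± 740 and MT-ND5 at 2545 ± 407.

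MT-RNR1, the small ribosomal RNA, had 1645 ± 319 and MT-ATP8 had 1405 ± 338 scaled CPM per kilobase. MT-ND6, the one mRNA read from the other strand, stood far below at 44.6 ± 5.92, with a range of 35.4 to 52.5 that touched no other mRNA. For each pair of neighbours down to MT-ATP8 the ranges over the 8 libraries overlapped, although the order of most pairs was the same in every library. The libraries are labelled as mRNA libraries, so the levels of RNAs without a long poly(A) tail, such as rRNAs, tRNAs and MT-ND6, cannot be read as their levels in the cells.

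**Figure D2:**
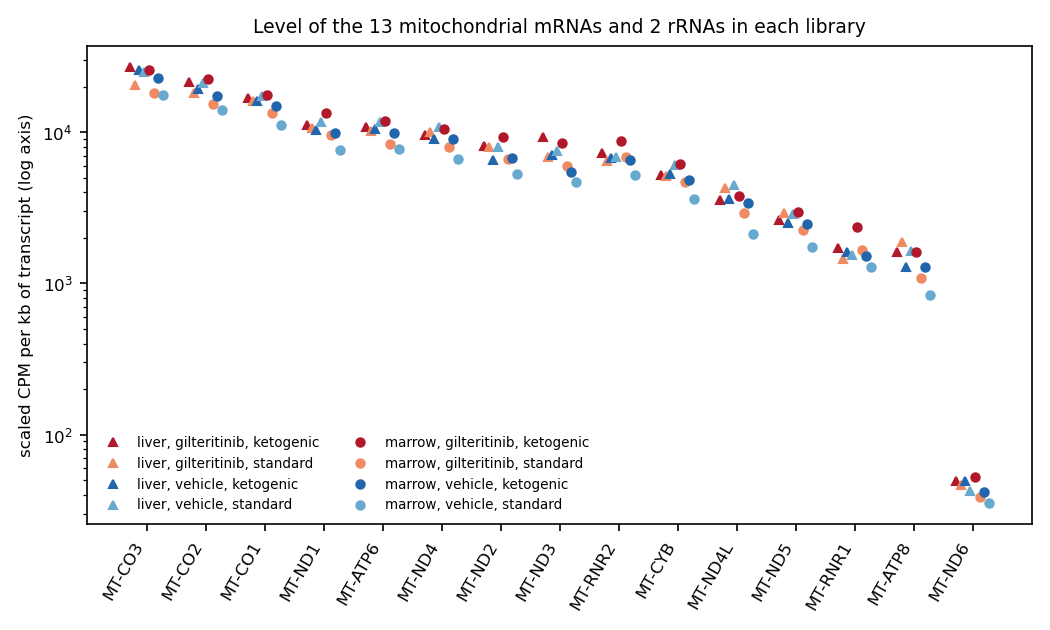
Level of each mitochondrial mRNA and rRNA in scaled CPM per kilobase (log axis), 1 point per library, triangles for liver and circles for marrow, ordered by the mean. The order from MT-CO3 to MT-ND6 (44.6) is nearly the same in all 8 libraries, and for most genes the marrow library with vehicle and standard diet is the lowest point.

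Transfer RNA genes, 59 to 75 bases long, together made up 0.02395% to 0.0314% of MT- counts. Of 22 such genes, 7 (MT-TN, MT-TC, MT-TK, MT-TG, MT-TR, MT-TH and MT-TL2) had 0 counts in all 8 libraries, which allows up to 0.2205 CPM in the shallowest library. Another 8 had counts but never 10 in 2 libraries, and MT-TF, MT-TI, MT-TM, MT-TW, MT-TE, MT-TT and MT-TP passed that limit. MT-TT, the threonine tRNA gene that follows MT-CYB, alone held 62.0% to 79.7% of tRNA counts, with 322 to 768 counts per library. MT-TW followed with 61 to 168.

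The copies differed widely in how many counts they received relative to their mitochondrial gene. MTATP6P1 had 20.2 to 22.6 counts per 100 counts of MT-ATP6 and MTND4LP30 had 14.8 to 16.6 per 100 of MT-ND4L, in all 8 libraries. MTCO1P12, MTCO2P12, MTND2P28, MTCO3P12 and MTND4P12 each had between 1.97 and 3.77 per 100. At the other end, MTCO1P2, MTCO2P22 and MTND4P24 had 0.0251 to 0.0597 per 100. Identity alone did not order them: MTATP8P1, at 97.6% identity, had 0.0677 to 0.235 per 100 of MT-ATP8, while MTND4LP30, at 94.95%, was the second highest. MTATP8P1 had 3 to 17 counts per library and shares 46 of its 207 bases with MTATP6P1, so its counts are uncertain.

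The genes in which the copies lie were counted at other levels. PCBD2 had 12.4 to 15.0 scaled CPM in the 8 libraries, against 219 to 465 for MTND4P12 within its intron. AL669831.3 had 0 to 0.488 scaled CPM, against 1076 to 1778 for MTATP6P1. Both of these copies lie on the strand opposite to the host gene. Other copies were below their host. MTCO2P2 had 16.8 to 38.3, against 67.8 to 87.4 for SMAD2 on the same strand. MTND6P4, on the strand of PCBD2, had 0.613 to 1.18, and MTCYBP18, on the opposite strand, had 3.54 to 10.9. The part of host gene reads in the counts of copies was not tested. The chromosome 1 block held 81.5% to 84.1% of all counts of copies, and the chromosome 5 block 13.2% to 16.0%.

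**Figure D3:**
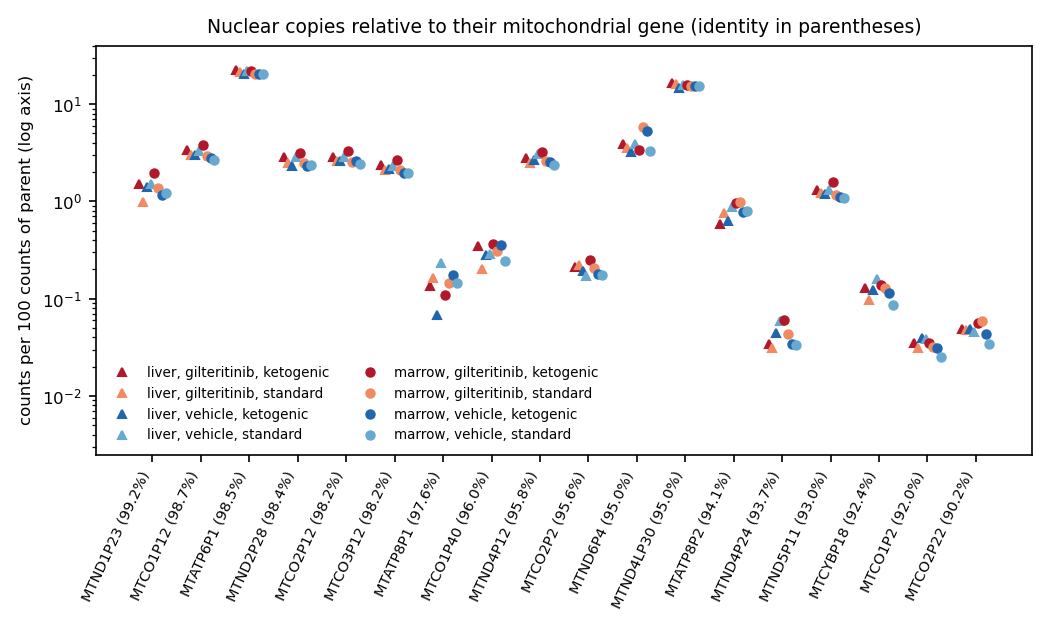
Counts of each nuclear copy per 100 counts of its mitochondrial gene (log axis), 1 point per library, with copies ordered by identity to that gene (in parentheses). MTATP6P1 and MTND4LP30 stand highest, at 20.2 to 22.6 and 14.8 to 16.6 per 100, and MTCO1P2 lowest at 0.0251 to 0.0396.

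With gilteritinib in marrow, both mitochondrial rRNAs, 6 of 13 mRNAs, 1 of 6 tested tRNA genes and 13 of 17 tested nuclear copies were higher. Of 38 members with enough counts to test, 22 rose and none fell, by edgeR's quasi-likelihood test with Benjamini-Hochberg adjusted p under 0.05, with diet as a second term. The same test called 10.5% of 14029 genes higher and 9.82% lower. With library totals as the scaling, which moved the median of all genes to -0.15 on the log2 scale, the split over all genes was 871 higher and 2757 lower, against 1473 and 1377 with TMM, and 12 members were called, all of them higher. The median log2 fold change was 0.38 over the members and -0.01 over all genes tested. Of the 17 members not tested, 16 were tRNA genes and the last was MTATP8P1.

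Both ribosomal RNAs rose. MT-RNR1 had 2256 and 1581 scaled CPM in the gilteritinib libraries (ketogenic and standard diet), against 1451 and 1233 in the vehicle libraries (ketogenic and standard diet), a log2 fold change of 0.50 ± 0.11 (SE) with an adjusted p of 0.000952. The lower gilteritinib library was above the higher vehicle library. MT-RNR2 changed by 0.40 ± 0.12 (adjusted p = 0.012).

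Of the 13 mRNAs, 6 rose. The 4 genes MT-ND1, MT-ND2, MT-ND3 and MT-ND5 encode subunits of complex I, the NADH dehydrogenase that feeds electrons into the chain. MT-ND3 had 2958 and 2069 scaled CPM with gilteritinib, against 1887 and 1631 with vehicle (0.49 ± 0.11 on the log2 scale, adjusted p = 0.00114), and the 2 groups did not overlap. MT-ND1 and MT-ND2 both had log2 fold changes of 0.39 ± 0.12 (adjusted p = 0.0146 and 0.0122), and MT-ND5 had 0.32 ± 0.12 (adjusted p = 0.0429). MT-CYB had 0.37 ± 0.12 (adjusted p = 0.0163). MT-ATP8, a small subunit of ATP synthase, had 0.35 ± 0.10 (adjusted p = 0.0117), and 46 of its 207 bases are shared with MT-ATP6. For MT-ND1, MT-ND2, MT-ND5, MT-CYB and MT-ATP8 the groups overlapped. For MT-ND1 the lower gilteritinib library had 9201 scaled CPM and the higher vehicle library 9399.

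The 3 mRNAs of complex IV were not called. MT-CO1 had a log2 fold change of 0.25 ± 0.12 (adjusted p = 0.148), MT-CO2 0.24 ± 0.12 (adjusted p = 0.152) and MT-CO3 0.12 ± 0.12 (adjusted p = 0.537). MT-ND4, MT-ND4L, MT-ATP6 and MT-ND6 had values of 0.20 to 0.30 and were not called. Complex IV mRNAs made up 44.6% and 44.1% of MT- counts in the gilteritinib libraries of marrow, against 46.7% and 46.7% in the vehicle libraries. Complex I mRNAs made up 33.0% and 33.1%, against 32.0% and 31.5%. These differences within the mitochondrial counts were not tested.

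MT-TT rose as well, with 31.4 and 24.2 scaled CPM with gilteritinib, against 18.9 and 16.7 with vehicle (0.63 ± 0.14, adjusted p = 0.000715). The other 5 tRNA genes tested were not called and had log2 fold changes of -1.37 (MT-TF) to 0.05 (MT-TW).

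Of 17 tested copies, 13 rose, with a median log2 fold change of 0.54 over the 17. MTND1P23 had 248 and 126 scaled CPM with gilteritinib, against 111 and 89.7 with vehicle, a log2 fold change of 0.83 ± 0.12 (adjusted p = 1.99e-06). MTND2P28 (0.66 ± 0.11), MTND5P11 (0.64 ± 0.12) and MTCO1P12 (0.54 ± 0.11) followed among the copies with high counts, all with adjusted p of 0.000204 or less. MTCO2P2 changed by 0.60 ± 0.14, MTND4P12 by 0.48 ± 0.11, MTCO2P12 and MTCO1P40 by 0.44, MTCO3P12 by 0.37 ± 0.11 and MTND4LP30 by 0.30 ± 0.11. The 3 copies MTND4P24, MTCO2P22 and MTCYBP18, with 72 to 188 counts per marrow library, had 0.85 ± 0.24, 0.82 ± 0.23 and 0.78 ± 0.22. MTATP6P1, MTATP8P2, MTCO1P2 and MTND6P4 were not called. Among the called copies the groups overlapped for MTCO1P12, MTCO2P12, MTCO3P12, MTND5P11, MTND4P12, MTND4LP30 and MTCO1P40.

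Relative to their genes, many copies were highest in 1 library. In the marrow library with both treatments MTND1P23 had 1.94 counts per 100 of MT-ND1, while the other 3 marrow libraries had 1.37 (gilteritinib with standard diet), 1.18 (vehicle with ketogenic diet) and 1.23 (vehicle with standard diet). In the liver libraries MTND1P23 had 0.974 to 1.51 per 100. Of 18 copies, 10 had their highest ratio to the mitochondrial gene over all 8 libraries in the marrow library with both treatments. Among these copies the highest ratio was 1.335 (MTCO3P12) to 1.99 (MTND1P23) times the lowest. Several of them are neighbours on chromosome 1, so they are not separate observations.

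Ratios between single libraries gave the same direction in both diets for every mRNA. Between the 2 ketogenic marrow libraries, 13 of 13 mRNAs were higher with gilteritinib (median log2 ratio 0.33) and 16 of 17 copies (median 0.65). Between the 2 standard-diet marrow libraries, 13 of 13 mRNAs (median 0.33) and 17 of 17 copies (median 0.49) were higher. The genes are cut from joint transcripts and scaled together, so their number adds no independent support.

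Beside these changes, the nuclear RNA MALAT1 had 70.2 and 54.6 scaled CPM in the gilteritinib libraries of marrow, against 50.9 and 36.7 in the vehicle libraries (0.52 ± 0.12 on the log2 scale, adjusted p = 0.000938). The other nuclear RNA listed, NEAT1, had 13.1 and 8.04, against 7.28 and 8.32, and was not called. Leukaemia cell markers summed to 8128 and 6308 CPM with gilteritinib, against 4614 and 4382 with vehicle, and 5 of 11 rose, LYZ and CSF1R by the most (1.40 and 1.22 on the log2 scale). Stress and dissociation genes summed to 1658 to 1804 CPM over the 4 libraries, with 4 of 9 tested genes higher and 1 lower. Lymphoid markers summed to 96.2 and 91.6 CPM with gilteritinib, against 77.2 and 67.8 CPM with vehicle (2 of 2 tested genes higher), and stromal and endothelial markers to 2.74 and 3.02 CPM, against 8.96 and 8.48 CPM (1 of 1 lower). Their part in the mitochondrial values was not tested. In a fit with a pooled spread, 13 members were called when either standard-diet library of marrow was left out (12 higher, and MT-TF lower), but 2 (MTCYBP18 and MTCO1P40) when either ketogenic library was left out. Leaving out either library of a diet leaves the drug effect as the ratio between the libraries of the other diet. The 2 runs for a diet are therefore not separate checks. With 1 drug term shared by all 8 libraries no member was called.

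**Figure D4:**
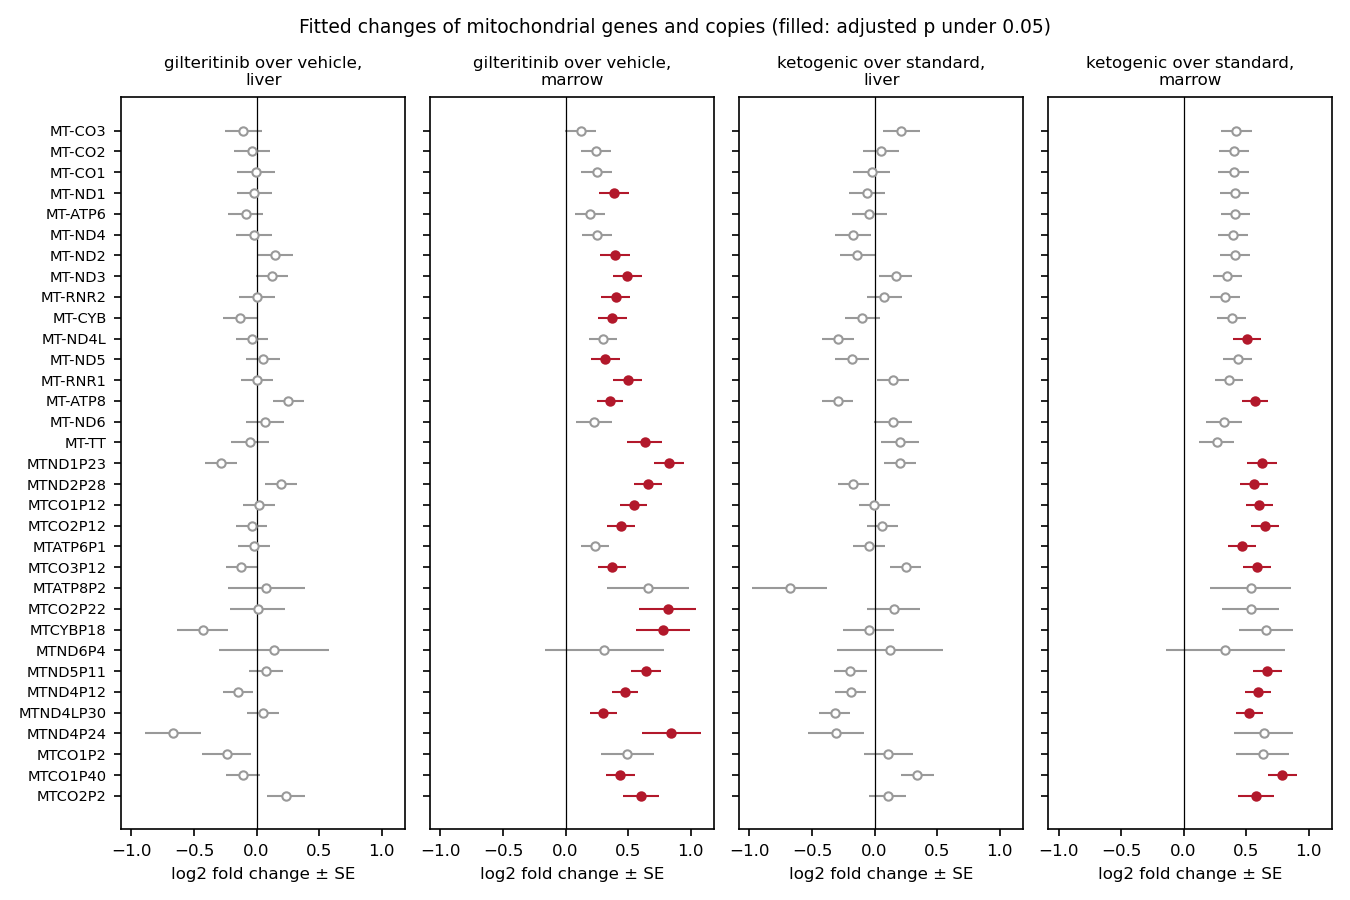
Log2 fold change ± SE of the mitochondrial mRNAs, rRNAs, MT-TT and 17 nuclear copies, gilteritinib over vehicle and ketogenic over standard diet, fitted within the liver and the marrow libraries. Filled points passed an adjusted p of 0.05: 22 for the drug and 13 for the diet in marrow, and 0 in liver.

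In the liver libraries gilteritinib changed no member past the threshold. None of 39 tested members was called by edgeR (4 had an unadjusted p under 0.05) and none by DESeq2 or limma-voom, against 1.41% of 14092 genes higher and 0.844% lower. The median log2 fold change was -0.02 over the members. MT-RNR1 had 1635 and 1388 scaled CPM with gilteritinib, against 1542 and 1468 with vehicle, and the groups overlapped. MT-ND3 had 3219 and 2363, against 2446 and 2620. In these libraries stress and dissociation genes summed to 1396 and 1704 CPM with gilteritinib, against 994.7 and 991.7 CPM with vehicle (7 of 9 tested genes higher). Leukaemia cell markers summed to 9015 and 9108 CPM with gilteritinib, against 5185 and 4438 CPM with vehicle (3 of 11 tested genes higher and 1 lower). Stromal and endothelial markers summed to 2.64 and 4.49 CPM, against 6.77 and 8.09 CPM (1 of 1 lower). Lymphoid markers went the other way than in marrow, with 72.5 and 64.4 CPM, against 79.7 and 81.2 CPM (0 of 2 called). In liver MALAT1 had 52.0 and 57.0 scaled CPM with gilteritinib, against 41.6 and 44.5 with vehicle. NEAT1 had 21.0 and 16.6, against 13.9 and 11.9, and neither was called. The part of these genes was not tested. The lowest adjusted p, 0.0916, belonged to MTND4P24, with 4.52 and 4.36 scaled CPM against 5.51 and 8.89 (-0.67 ± 0.22).

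In liver, most members had opposite directions in the 2 diets. Between the ketogenic libraries, 11 of 13 mRNAs and 15 of 17 copies were higher with gilteritinib (medians 0.07 and 0.20). Between the standard-diet libraries, 3 of 13 mRNAs and 1 of 18 copies were higher (medians -0.11 and -0.28). Each ratio is of 2 libraries with no replicate. MT-CO3 counts per 100 MT-CO1 counts were 80.7 and 64.6 with gilteritinib (ketogenic and standard diet) and 81.7 and 73.4 with vehicle (ketogenic and standard diet). In marrow this ratio was 74.6 and 69.5 with gilteritinib and 77.2 and 80.4 with vehicle, and none of these differences was tested.

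**Figure D5:**
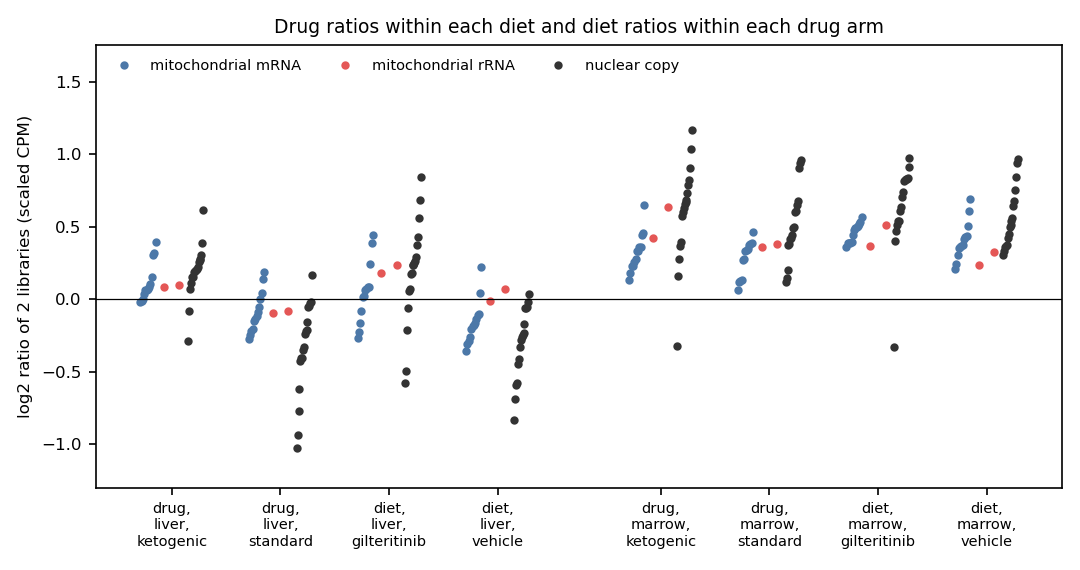
Log2 ratio of scaled CPM between 2 single libraries for each mitochondrial mRNA, rRNA and nuclear copy, given as gilteritinib over vehicle within each diet (drug) and as ketogenic over standard diet within each drug arm (diet), liver on the left. All marrow mRNA ratios are above 0 (lowest 0.06), while liver ratios fall on both sides (medians -0.18 to 0.07 for mRNAs).

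Set against each other in 1 fit of all 8 libraries, the drug effect was more negative in liver than in marrow for 3 of 40 tested members, all of them copies, while the same test called 1.62% of 14749 genes with a more positive effect in liver and 0.868% with a more negative one. MTND4P24 had a difference of -1.52 ± 0.33 on the log2 scale (adjusted p = 0.0118), MTCYBP18 of -1.21 ± 0.32 (adjusted p = 0.0467) and MTND4P12 of -0.63 ± 0.16 (adjusted p = 0.0444). MTND4P12 had 364 and 347 scaled CPM with gilteritinib in liver, against 338 and 460 with vehicle there, and 465 and 286 with gilteritinib in marrow, against 312 and 219 with vehicle there. The difference was negative for all 13 mRNAs, with a median of -0.27, and none was called (lowest adjusted p = 0.0641, MT-CYB). No member was called for this difference when either standard-diet liver library was left out, and 10 were called when either ketogenic liver library was.

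The ketogenic diet in marrow came with higher values of all 38 tested members, of which 13 passed the test. Over all genes, 0.342% of 14029 were called higher and 0.15% lower. The median log2 fold change was 0.54 over the members and 0.00 over all genes tested. The 13 called members were 11 copies and 2 mRNAs, MT-ATP8 and MT-ND4L, both short genes that overlap a neighbour.

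MTCO1P40, on chromosome 17, had 99.2 and 81.8 scaled CPM in the ketogenic libraries (gilteritinib and vehicle), against 63.7 and 41.9 in the standard-diet libraries (gilteritinib and vehicle), a log2 fold change of 0.79 ± 0.12 (adjusted p = 2.47e-05). Both ketogenic libraries were above both standard-diet ones. MTND5P11 (0.67 ± 0.12), MTCO2P12 (0.65 ± 0.11), MTND1P23 (0.63 ± 0.12), MTCO1P12 (0.61 ± 0.11) and MTND4P12 (0.59 ± 0.11) followed, with adjusted p of 0.00331 or less. MTCO3P12, MTCO2P2, MTND2P28, MTND4LP30 and MTATP6P1 had 0.59, 0.58, 0.56, 0.53 and 0.47. Among the called copies the groups overlapped for MTND1P23, MTND2P28 and MTCO2P2. For MTND1P23 the lower ketogenic library had 111 scaled CPM and the higher standard-diet library 126.

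MT-ATP8 had 335 and 266 scaled CPM with the ketogenic diet, against 226 and 174 with the standard diet (0.57 ± 0.10, adjusted p = 0.00112). MT-ND4L had 1117 and 1018, against 872 and 631 (0.51 ± 0.11, adjusted p = 0.0133). The remaining 11 mRNAs had log2 fold changes of 0.32 to 0.43, each with an unadjusted p under 0.05 and none past adjustment. MT-CO1, for example, had 27130 and 23101 scaled CPM, against 20630 and 17109 (0.40 ± 0.12, adjusted p = 0.155). MT-RNR1 and MT-RNR2 had 0.36 and 0.33 and were not called either. Scaling by library totals without the MT- counts raised the number called to 21.

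In both drug arms every one of the 13 mRNAs was higher with the ketogenic diet, with a median log2 ratio of 0.47 among the gilteritinib libraries and 0.37 among the vehicle libraries. Of 17 copies, 16 were higher among the gilteritinib libraries (median 0.70) and 17 among the vehicle libraries (median 0.51). MALAT1 had a log2 fold change of 0.40 ± 0.12 with the diet (adjusted p = 0.129). NEAT1, also not called, had 13.1 and 7.28 scaled CPM with the ketogenic diet (gilteritinib and vehicle), against 8.04 and 8.32 with the standard diet. Their part was not tested. No member was called without drug as a term, nor with all genes kept regardless of counts, and 1 (MTCO1P40) when either gilteritinib library was left out.

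In liver the diet changed no member past the threshold. None of 39 was called by edgeR, DESeq2 or limma-voom, although 6 had an unadjusted p under 0.05, and 0.362% of 14092 genes were called higher and 0.653% lower. The median log2 fold change was 0.00. MT-ATP8 had 332 and 265 scaled CPM with the ketogenic diet (gilteritinib and vehicle), against 387 and 341 with the standard diet (-0.29 ± 0.12, adjusted p = 0.335). Among the gilteritinib libraries 9 of 13 mRNAs and 14 of 18 copies were higher with the ketogenic diet, and among the vehicle libraries 2 of 13 and 1 of 17 were. Without the liver library of vehicle and ketogenic diet, MTCO1P40 was called higher.

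For the difference of the diet effect, liver minus marrow, no member of 40 was called, nor any of 14749 genes (0% in either direction), and 23 members had an unadjusted p under 0.05. The values were negative for 39 of 40, and the lowest adjusted p were those of MT-ATP8 (-0.88 ± 0.14, adjusted p = 0.0521) and of MT-ND4L and MTND4LP30 (-0.81 and -0.85, both 0.0872). DESeq2 called these 3.

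Liver and marrow libraries themselves were not separated by any member. None of 40 was called for liver over marrow in edgeR with drug and diet as terms, nor any of 14749 genes (0% in either direction), and 7 members had an unadjusted p under 0.05. All 13 mRNAs had values above 0, the median log2 fold change over the members was 0.23, and the lowest adjusted p among the members was that of MT-ND3 (0.35 ± 0.11, adjusted p = 0.227). DESeq2 also called none. With separate drug and diet terms for each label, 6 members were called higher in liver (MTCO1P12, MTND4LP30, MTCO1P2, MT-ATP8, MT-ND3 and MT-ND4L) and 518 of all genes were called.

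The nuclear genes that make, process and assemble with mitochondrial RNA were given as lists chosen from knowledge of the pathway, with earlier results of these data known. In marrow with gilteritinib, 3 of 17 genes of mitochondrial transcription, replication and the nucleoid fell and 1 rose (median log2 fold change -0.13), against 9.82% lower and 10.5% higher over all genes. On these few genes, the part that fell was above its share over all genes and the part that rose was under its own. Neither difference was tested. TFAM, which packages mitochondrial DNA and starts transcription, had 65.01 and 81.9 scaled CPM with gilteritinib, against 92.7 and 95.5 with vehicle (-0.37 ± 0.11, adjusted p = 0.0158). TFB2M, the other initiation factor, had -0.49 ± 0.13 and TEFM, the elongation factor, -0.66 ± 0.19 (adjusted p = 0.00409 and 0.00949). TOP1MT, a topoisomerase of mitochondrial DNA, had 227 and 190 with gilteritinib, against 128 and 122 with vehicle (0.73 ± 0.11, adjusted p = 8.12e-07). The polymerase gene POLRMT was not called (0.15 ± 0.11, adjusted p = 0.382).

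Of 20 genes for RNA processing, stability and decay, 1 rose in marrow with gilteritinib, REXO2, an oligoribonuclease (0.51 ± 0.16, adjusted p = 0.0166), a count under the 10.5% of all genes. LRPPRC and SLIRP, which together stabilise mitochondrial mRNAs, had -0.11 ± 0.10 and 0.16 ± 0.12, and MTPAP, the mitochondrial poly(A) polymerase, 0.18 ± 0.13, none of them called. Among 7 tested nuclear regulators, 2 fell and 1 rose, against 9.82% lower and 10.5% higher over all genes. On so few genes these differences were not tested. GABPA and GABPB1, the subunits of nuclear respiratory factor 2, fell by 0.54 and 0.50 on the log2 scale (adjusted p = 0.0015 and 0.00732). The receptor ESRRA rose by 0.34 (adjusted p = 0.0352).

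Of 73 tested nuclear genes for oxidative phosphorylation subunits, 17 rose and 1 fell (median 0.16 on the log2 scale), against 10.5% higher and 9.82% lower over all genes. NDUFA11 (0.69 ± 0.20) and NDUFB8 (0.53 ± 0.17) of complex I and ATP5MG (0.51 ± 0.13) of ATP synthase rose the most, and NDUFS1 of complex I was the one that fell (-0.40 ± 0.11). Over the alternatives, 1 to 7 genes of transcription and replication, 0 to 5 of processing, 0 to 3 regulators and 0 to 21 of these subunits were called. In the liver libraries with gilteritinib, TOP1MT rose (0.43 ± 0.13, adjusted p = 0.0363) and no other gene of these 4 lists was called. POLRMT, TFAM, LRPPRC, SLIRP and MTPAP there had log2 fold changes of 0.01, -0.10, 0.14, -0.02 and 0.04. The diet changed none of the listed genes past the threshold in either label. In marrow, TFAM had -0.20 ± 0.11 and LRPPRC -0.22 ± 0.10 with the ketogenic diet (adjusted p = 0.592 and 0.501), POLRMT 0.12, SLIRP 0.10 and MTPAP -0.20. In liver, the 5 had -0.07 for TFAM, 0.03 for LRPPRC, -0.18 for POLRMT, 0.27 for SLIRP and 0.28 for MTPAP.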

How the data were processed

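Messenger RNA libraries from 4 marrow and 4 liver samples were sequenced as paired ends of 100 bases, per the labels' protocols. The deposited values are raw counts per gene of 60676 genes, not normalized. Per the submitters' processing notes, STAR 2.7.3a and GRCh38 were used. Not given in the sources used here are the counting program, its annotation, its strand setting, its handling of reads that match several places, and any removal of mouse reads. Counts of copies and overlapping genes are therefore uncertain.

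Groups came from the labels. Genes reaching 10 counts in 2 or more fitted libraries were tested with edgeR 4.0.16 (R 4.3.3): TMM scaling, robust quasi-likelihood fit, drug and diet as terms within each label, and 1 fit of all 8 libraries with those terms and the label, or with their interaction with the label. Two-sided p-values were adjusted over all genes tested. One residual degree of freedom was left per label (4 and 2 in the fits of all 8), so p-values lean on the spread shared across genes. SEs are the log2 fold change over the root of F. Alternatives were DESeq2 1.42.0, limma-voom 3.58.1, other scalings, filters and models, and each library left out in turn, the last with the spread pooled over both labels and a library left alone in its arm taken to vary as the rest do. With separate terms per label, leaving out either library of a diet leaves the drug effect as the single ratio within the other diet. The same holds for the diet effect and the drug arms, so such paired runs are not separate checks. The code was run on simulated counts with known changes, as a check of the code only, which does not show that p-values resting on 1 residual degree of freedom hold for these libraries. Shares were tested by exact permutation within labels (scipy 1.17.1). Per-length levels use GENCODE 29 transcript lengths, and copies were aligned to their mitochondrial gene with Biopython 1.88 (match 2, mismatch -3, gap -5 and -2). GENCODE 29 holds 96.4% of the identifiers and all 55 members.

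The 13 mRNAs, 2 rRNAs and passing copies were named with values, tRNA genes by count, and up to 3 largest rises and falls per list. Members and lists were chosen with earlier results of these data known. All intervals and floors (3 counts for a count of 0) cover counting error only.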

Additional observations from a re-analysis of the deposited data

Results flagged for a closer look

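The nuclear copies MTND4P24, MTCYBP18 and MTND4P12 had a drug effect that differed between the liver and the marrow libraries, by the interaction of drug and label in edgeR's fit of all 8 libraries. The difference, liver minus marrow, was -1.52 for MTND4P24, -1.21 for MTCYBP18 and -0.63 for MTND4P12 on the log2 scale. MTND4P24 had 116 and 120 unscaled counts in the gilteritinib liver libraries, against 122 and 92 in the vehicle ones, listed with the standard diet first. In marrow it had 74 and 166, against 111 and 72. Library totals differed, so these counts do not show the direction by themselves. In scaled CPM the values were 4.36 and 4.52 against 8.89 and 5.51 in liver, and 4.84 and 8.65 against 3.09 and 4.23 in marrow. MTCYBP18 had 105 to 204 counts over all 8 libraries, so counting error is large for both. Of the 3, DESeq2 called MTND4P12 for the same difference. The handling of reads that match a copy and its mitochondrial gene was not tested.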

How the results depend on the processing

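No paired analysis was possible because each combination of label, drug and diet has 1 library and no replicate number to serve as a block. The reported fits do match libraries within a label by diet (for the drug) or by drug (for the diet), through the second term. No called member changed sign under any alternative run. For the drug in marrow (22 members called), 12 were called with library totals as the scaling, 8 without a count filter, 14 by DESeq2, 5 without diet as a term, 0 with shared terms for all 8 libraries, and 2 to 13 with a library left out. Library totals moved the median of all genes for the drug in marrow to -0.15 (log2) and that of the drug difference to 0.11. Over all genes, the splits into higher and lower calls that moved most were, for the drug in marrow, 871 and 2757 with library totals and 955 and 2645 with totals without MT- counts (1473 and 1377 as reported), for the drug in liver 158 and 169 with totals without MT- counts (199 and 119), for the diet in marrow 35 and 7 with DESeq2's size factors (48 and 21), and for the drug difference 332 and 71 or 290 and 70 with the totals (239 and 128). For the diet in marrow (13 called), 21 were called with totals without MT- counts, 0 without a count filter, 0 without drug as a term, 6 with separate terms in all 8 libraries, 0 with shared terms, and 1 to 9 with a library left out. For the diet in liver (0) the range with a library left out was 0 to 1. For liver over marrow (0), 6 were called with separate terms per label. For the drug difference (3), 1 was called without a count filter and 0 to 10 with a library left out. For the diet difference (0), 1 was called at 50 or more counts, 3 by DESeq2, 1 by the older quasi-likelihood fit, and 0 to 2 with a library left out. The drug difference in the share of MT- counts ranged from -0.46 to 0.948 percentage points with a library left out, and its direction therefore rests on single libraries, whereas that of the diet stayed between 0.866 and 1.51. That pooled diet difference averages 2.69 points in marrow and -0.314 points in liver, so the labels did not share its direction. Calls over all genes for the drug in marrow ranged from 725 to 3628 (2850 as reported). The cause of these changes was not tested.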
